A study of Mus musculus with 16 samples.

Results

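The effect of losing the endothelial transcription factors Erg and Fli1 was compared between heart and lung. The comparison rests on 10 of the 16 libraries of the series, all poly(A) RNA sequencing of mouse endothelial cells taken at day 10 after tamoxifen. They fall into 4 groups: heart cells labelled as Erg and Fli1 double knockout (KO, n = 2), heart cells labelled wild type (control, n = 2), lung KO cells (n = 3) and lung control cells (n = 3). Tamoxifen was given to induce the deletion, and the protocol text is the same for both labels. No source used here names the Cre driver, the mouse strain or the age of the animals. An antibody to VE-cadherin was injected before the animals were killed, and cells were released with collagenase and dispase, and sorted as live cells that stained for CD31 and VE-cadherin but not for CD45. The quantity described for each gene is the log2 change of KO over control in heart minus the same log2 change in lung, called the difference from here on. A positive difference means that KO over control was higher in heart than in lung, whichever tissue moved.

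Erg and Fli1 belong to the ETS family, whose members bind DNA around a GGAA core and keep many endothelial genes active, among them genes for junctions, receptors and anticoagulants. Endothelial cells also differ by organ. Heart capillary cells take up and store fatty acids for the working muscle, whereas lung capillary cells are thin, serve gas exchange and carry MHC class II molecules more than most endothelium.

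Total counts ran from 31837780 to 41132076 per library, and libraries of 1 group correlated at 0.965 to 0.983 across genes. From the levels of sex-linked genes, 3 of these libraries were male, namely KO library 2 of heart and of lung and control library 2 of lung, and both heart controls were female. A fit of the female libraries alone thus kept library 1 as the only heart KO library. Sex and the loss of heart KO library 2 cannot be told apart in that fit. Levels are in CPM, read counts brought to a common effective library size, and the libraries of a group are given in the order of their numbers. Nothing in the labels says that all libraries of a group came from separate animals, so p-values measure the spread between these libraries. The 46 pan-endothelial genes summed to 22120 and 25330 CPM in heart KO, against 36460 and 38620 CPM in heart control. In lung they summed to 38930, 37120 and 31850 CPM in KO and 52120, 53400 and 55820 CPM in control. Transcripts of lung epithelium and of leukocytes were also present and moved with the label. The 20 genes chosen to define lung epithelium summed to 129 and 206 CPM in heart KO, against 7.49 and 10.0 CPM in heart control. Heart KO libraries and heart control libraries therefore did not overlap in this sum, and the values are given gene by gene at the end. In sorted pools, fewer cells of a type and less RNA per cell cannot be told apart.

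Of 19646 genes tested, 1257 differed between the tissues (edgeR quasi-likelihood test, Benjamini-Hochberg adjusted p under 0.05), which is 6.4% of those tested. The difference was higher in 752 genes (3.83%) and lower in 505 (2.57%), and it was at least 2-fold in 639 and 336 of them. Within heart 3786 genes passed (19.3%), 2001 higher in KO (10.2%) and 1785 lower (9.09%). Within lung 1662 passed (8.46%), 854 higher (4.35%) and 808 lower (4.11%). Most of the called differences came with a change in heart that did not pass in lung, namely 533 of the 752 higher ones (70.9%) and 308 of the 505 lower ones (61%). Lung alone passed for 88 of the higher and 119 of the lower ones (11.7% and 23.6%). A further 101 genes passed in both tissues with opposite signs, 68 with a higher and 33 with a lower difference. The median change over all genes was close to 0 in both tissues, at log2 0.00609 in heart and −0.0244 in lung.

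In simulated counts of this design 59% of 4-fold differences and 7% of 2-fold differences were recovered. There 200 of 19646 genes were changed, in heart KO alone and with no other knockout effect. The real libraries held many more changes, so these shares need not carry over to them. The counts of higher and lower differences were 307 and 169 without heart KO library 1, 287 and 209 without heart control 1, and 358 and 185 without heart control 2. Without lung control 3 they were 491 and 273, and the lower count was 297 without lung control 1. Genes over 10 times higher in lung than in heart controls made up 7.09% of those tested, 26.5% of the higher differences (199 genes) and 1.19% of the lower ones (6 genes).

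**Figure D1:**
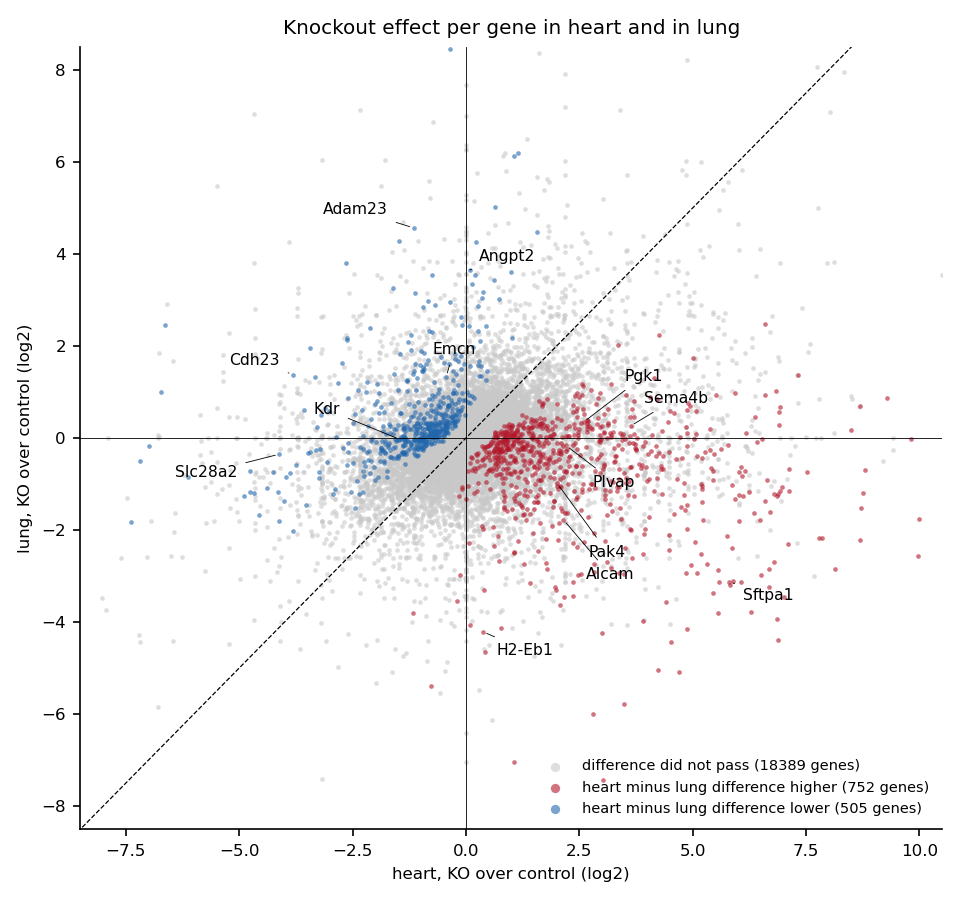
Log2 change of KO over control in heart (horizontal axis) and in lung (vertical axis), with 1 point per gene for 19638 of the 19646 genes tested and 8 outside the axes. Red points are the 752 genes with a higher and blue points the 505 genes with a lower difference; the dashed line marks equal change in both tissues, and most coloured points lie along the horizontal axis, where heart moved and lung did not pass.

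For the targeted genes the difference between the tissues did not pass. Erg (chromosome 16, 95359169 to 95586593, minus strand, GRCm38) had 158 and 155 CPM in heart KO, against 204 and 229 CPM in heart control. In lung Erg had 224, 166 and 164 CPM in KO and 263, 259 and 276 CPM in control. Every KO library lay below every control library of its tissue, the log2 changes were −0.47 in heart (adjusted p = 0.0538) and −0.52 in lung (adjusted p = 0.0231), and the difference was 0.05 (SE 0.205, adjusted p = 0.93). Its sign turned without heart control 1, lung KO 2 or lung KO 3, so no order of the tissues can be read from it. Fli1 (chromosome 9, 32422204 to 32542861, minus strand) had 207 and 232 CPM in heart KO, against 198 and 236 CPM in heart control. Lung Fli1 was higher in KO, at 136, 98.2 and 138 CPM against 76.6, 77.9 and 76.6 CPM in control. Its difference was −0.67 (SE 0.242, adjusted p = 0.12) and passed without lung KO library 2 (adjusted p = 0.0408). Whole-gene counts also take in reads from exons that the deletion may spare, so these levels do not measure how complete the deletion was in either tissue.

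Among 14 further endothelial genes chosen as a panel, Emcn, Kdr and Plvap differed between heart and lung. Emcn (chromosome 3, 137341067 to 137432185, plus strand), the sialomucin endomucin of capillaries and veins, had 247 and 325 CPM in heart KO, against 384 and 390 CPM in heart control. Lung Emcn moved the other way, with 373, 569 and 399 CPM in KO and 190, 171 and 173 CPM in control. The groups did not overlap in either tissue, the lung rise passed (log2 1.33, adjusted p = 0.00059) while the heart value did not (log2 −0.44, adjusted p = 0.174), and the difference was −1.76 (SE 0.277, adjusted p = 0.00268). The main VEGF receptor gene Kdr (chromosome 5, 75932827 to 75978458, minus strand) had 944 and 1294 CPM in heart KO, against 3310 and 2839 CPM in heart control. Kdr in lung had 1282, 1445 and 1236 CPM in KO and 1072, 1591 and 1381 CPM in control, with overlapping groups. Control levels of Kdr were thus higher in heart than in lung, and heart KO levels lay within the range of the lung libraries apart from the lower one. The Kdr difference was −1.43 (SE 0.332, adjusted p = 0.0223). This call ended without heart KO 1, heart control 1, heart control 2 or lung control 1 (adjusted p = 0.112, 0.0917, 0.0507 and 0.051), and in the female libraries alone (adjusted p = 0.0701). Plvap, which forms the diaphragms of fenestrae and caveolae, had 274 and 240 CPM in heart KO, against 28.5 and 83.2 CPM in heart control. Lung libraries held far more Plvap with no separation, at 1932, 2123 and 2705 CPM in KO and 3010, 2066 and 2467 CPM in control. Its difference was 2.36 (SE 0.472, adjusted p = 0.0109), and in the female libraries alone it did not pass (adjusted p = 0.0827).

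For the other 11 panel genes the difference did not pass in the unpaired edgeR fit of all 16 libraries. Tek, Cldn5 and Vcam1 passed in other fits. Tek, the angiopoietin receptor gene, had 331 and 346 CPM in heart KO, against 591 and 608 CPM in heart control, and 593, 299 and 342 CPM in lung KO, against 1446, 1342 and 1533 CPM in lung control. It fell in both tissues, and its difference of 0.98 (SE 0.313, adjusted p = 0.0814) passed in limma-voom (adjusted p = 0.0418), in DESeq2 (adjusted p = 0.0267) and without lung KO 1 (1.35, adjusted p = 0.00189). Cldn5, a tight junction gene, had 514 and 519 CPM in heart KO, against 387 and 373 CPM in heart control, and 2262, 2792 and 1741 CPM in lung KO, against 3605, 3072 and 2439 CPM in lung control. The Cldn5 groups were apart in heart and overlapped in lung, neither change passed, and the difference of 0.87 (SE 0.283, adjusted p = 0.0884) passed in limma-voom (adjusted p = 0.0423), in DESeq2 (adjusted p = 0.0178) and without lung KO 2 (adjusted p = 0.0344). Tie1, an orphan receptor of the angiopoietin system, fell in both tissues, to 588 and 736 CPM in heart KO against 1673 and 1768 CPM in heart control, and to 917, 813 and 596 CPM in lung KO against 1572, 1573 and 1629 CPM in lung control. Its difference of −0.34 (SE 0.249) had an adjusted p of 0.477. Thbd, the anticoagulant receptor thrombomodulin, also fell in both, by log2 −1.04 in heart and −0.94 in lung, with a difference of −0.10 (SE 0.354, adjusted p = 0.93) whose sign turned in some alternatives. Cdh5, which encodes the VE-cadherin used in the sort, had a difference of −0.12 (SE 0.286) and Pecam1, which encodes CD31, one of 0.63 (SE 0.282), with adjusted p of 0.871 and 0.213. Vcam1, a leukocyte adhesion receptor, had 297 and 211 CPM in heart KO, against 73.2 and 90.6 CPM in heart control. Lung Vcam1 overlapped, with 101, 60.1 and 182 CPM in KO and 107, 84.7 and 93.4 CPM in control. Its difference of 1.37 (SE 0.685, adjusted p = 0.27) passed when same-numbered heart and lung libraries were treated as pairs (adjusted p = 0.00122).

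Over the whole pan-endothelial list, 5 of 46 genes differed between heart and lung (2 higher, 3 lower, or 1 lower without heart KO 1, heart control 1 or heart control 2 and 5 without lung KO 2), with a median difference of 0.0259 beside 0.0233 over all genes tested. Of all genes tested 6.4% differed between the tissues. In heart 18 of the 46 fell and 4 rose (against 9.09% and 10.2% of all genes). In lung 22 fell and 4 rose (against 4.11% and 4.35%).

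Promoter sequences of 6 genes whose knockout effect differed are shown so that ETS-type motifs can be looked up beside the values. They run from 250 bases before to 50 bases after the RefSeq start (GRCm38.p6), are written 5′ to 3′ on the strand of the gene, and carry every match to AGGAAG or CGGAAG on either strand in capitals.
Emcn: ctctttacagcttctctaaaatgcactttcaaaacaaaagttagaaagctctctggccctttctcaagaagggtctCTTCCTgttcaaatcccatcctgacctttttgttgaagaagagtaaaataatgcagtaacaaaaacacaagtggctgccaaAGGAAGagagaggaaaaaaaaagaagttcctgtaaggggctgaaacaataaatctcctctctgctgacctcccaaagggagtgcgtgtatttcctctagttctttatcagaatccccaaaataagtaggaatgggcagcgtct
Kdr: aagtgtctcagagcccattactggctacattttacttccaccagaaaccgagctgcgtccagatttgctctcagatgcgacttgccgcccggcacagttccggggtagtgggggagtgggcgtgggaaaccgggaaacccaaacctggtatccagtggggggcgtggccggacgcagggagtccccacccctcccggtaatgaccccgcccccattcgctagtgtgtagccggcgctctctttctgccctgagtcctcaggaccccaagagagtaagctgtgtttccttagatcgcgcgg
Slc28a2: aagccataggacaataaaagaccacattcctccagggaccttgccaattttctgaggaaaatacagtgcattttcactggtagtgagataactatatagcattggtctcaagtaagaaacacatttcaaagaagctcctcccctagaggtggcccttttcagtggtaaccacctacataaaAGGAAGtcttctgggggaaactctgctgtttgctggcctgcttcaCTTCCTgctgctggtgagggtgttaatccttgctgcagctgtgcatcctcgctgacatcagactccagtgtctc
Afdn: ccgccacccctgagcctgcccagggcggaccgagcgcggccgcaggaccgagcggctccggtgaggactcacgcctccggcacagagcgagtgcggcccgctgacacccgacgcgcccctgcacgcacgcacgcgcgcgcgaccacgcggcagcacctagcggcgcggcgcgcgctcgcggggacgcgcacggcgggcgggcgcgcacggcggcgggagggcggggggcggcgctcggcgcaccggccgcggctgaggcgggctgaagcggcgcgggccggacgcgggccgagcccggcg
Cdh23: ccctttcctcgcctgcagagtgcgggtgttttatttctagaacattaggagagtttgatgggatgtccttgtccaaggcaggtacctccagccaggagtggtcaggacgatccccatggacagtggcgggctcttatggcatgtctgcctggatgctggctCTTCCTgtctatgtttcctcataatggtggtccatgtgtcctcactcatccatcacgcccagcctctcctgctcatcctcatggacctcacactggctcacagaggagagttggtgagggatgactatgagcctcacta
Sema4b: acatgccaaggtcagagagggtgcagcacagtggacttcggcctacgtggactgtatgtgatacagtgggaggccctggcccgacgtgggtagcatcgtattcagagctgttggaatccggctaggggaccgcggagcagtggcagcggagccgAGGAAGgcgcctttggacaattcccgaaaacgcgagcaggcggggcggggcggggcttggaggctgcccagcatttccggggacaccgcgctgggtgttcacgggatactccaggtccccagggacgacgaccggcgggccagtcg
These windows are chr3:137340828-137341127 (plus strand), chr5:75978406-75978705 (minus strand), chr2:122426185-122426484 (plus strand), chr17:13760291-13760590 (plus strand), chr10:60696441-60696740 (minus strand) and chr7:80186620-80186919 (plus strand). The window of Sema4b is that of the first of 2 listed starts. Emcn and Slc28a2 each hold 2 matches, Cdh23 and Sema4b hold 1 each, and the letters searched are not in the windows of Kdr and Afdn. Of all 32851 promoter windows 46.5% hold at least 1 match. Among windows of genes tested here the share was 51.8%, of genes with a higher difference 50.6% and of genes with a lower difference 48.6%, with 558 of 752 and 381 of 505 genes matched by symbol. A match is a description of the sequence and says nothing on binding.

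Among growth factor and receptor genes, Angpt2 responded in lung and not in heart. Angpt2 (chromosome 8, 18690263 to 18741562, minus strand) encodes the angiopoietin that destabilises vessels by competing at the receptor Tek. It had 36.6 and 39.8 CPM in heart KO, against 42.4 and 29.4 CPM in heart control. Lung KO libraries held 349, 328 and 934 CPM, against 43.7, 44.4 and 39.9 CPM in lung control. Controls of both tissues and heart KO thus lay within one narrow range, the 3 lung KO libraries lay above it, and the difference was −3.57 (SE 0.522, adjusted p = 0.0019). Of the 26 VEGF and angiopoietin genes tested, 1 had a higher and 4 a lower difference, and the lower count was 1 or 2 without any 1 library other than heart KO 2 and lung KO 2. Vegfa, the ligand of Kdr, had 387 and 233 CPM in heart KO, against 74.5 and 72.7 CPM in heart control. Its lung levels were 787, 890 and 604 CPM in KO, all below 1405, 986 and 1149 CPM in control, a fall that did not pass. The Vegfa difference of 2.71 (SE 0.725, adjusted p = 0.041) ended when any library but heart KO 2 or lung KO 2 was left out, with adjusted p up to 0.152. With heart and lung libraries paired by number, 3 genes of this list had a higher and 2 a lower difference. In the unpaired fit 3.83% of all genes tested had a higher and 2.57% a lower difference.

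Endothelin, junction and Notch genes gave further contrasts. Edn1, which encodes the vasoconstrictor endothelin 1, had 122 and 107 CPM in heart KO, against 31.8 and 49.0 CPM in heart control. In lung it had 71.2, 56.4 and 64.3 CPM in KO, against 159, 127 and 214 CPM in control. Edn1 rose in heart (log2 1.5, adjusted p = 0.0216) and fell in lung (log2 −1.38, adjusted p = 0.0208), without overlap in either, and the difference was 2.89 (SE 0.535, adjusted p = 0.00736). Afdn, which encodes afadin, a protein that links nectins to actin at junctions, fell to 218 and 248 CPM in heart KO, against 1056 and 1176 CPM in heart control. Lung Afdn overlapped, at 365, 255 and 291 CPM in KO and 325, 362 and 381 CPM in control, and the difference was −2.03 (SE 0.21, adjusted p = 0.000253). Mfng, a glycosyltransferase gene that tunes Notch receptors, fell in both tissues but further in heart. It had 8.51 and 6.19 CPM in heart KO, against 118 and 120 CPM in heart control. Lung Mfng had 62.4, 45.2 and 55.5 CPM in KO, against 126, 159 and 138 CPM in control, and the difference was −2.64 (SE 0.433, adjusted p = 0.00347). Among 26 Notch genes tested, edgeR called Mfng alone (3.85%), and limma-voom also called Hey1, a transcription factor gene downstream of Notch, at −1.93 (adjusted p = 0.0237, against −1.75 and 0.139 in edgeR). With the 10 libraries fitted alone 2 Notch genes had a higher difference, and with heart and lung paired by number 1 did. Beside the Notch and junction lists, 3.83% of all genes tested had a higher and 2.57% a lower difference in edgeR. Of 36 junction genes 3 had a higher and 2 a lower difference, with 1 higher without heart KO 1.

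**Figure D2:**
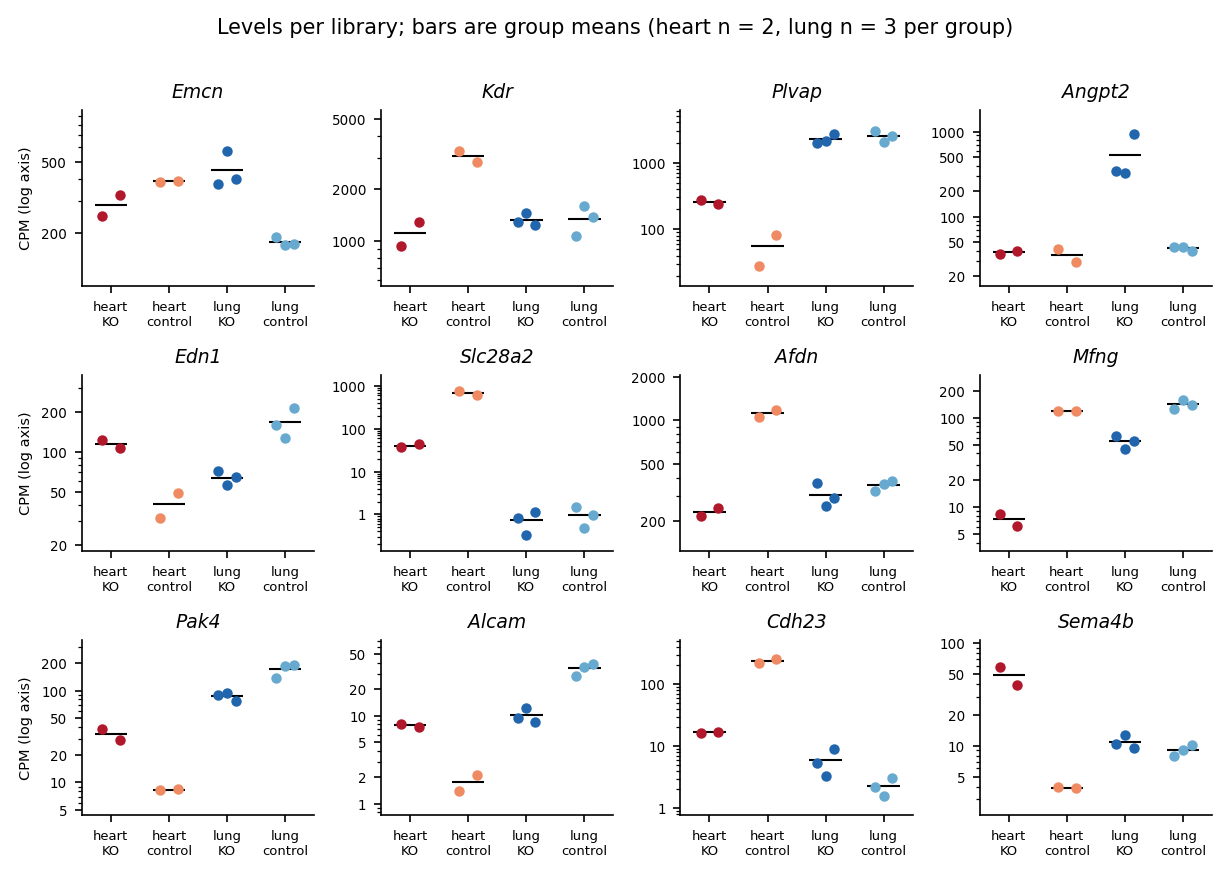
Levels of 12 genes in every heart and lung library (CPM, log axis, with a separate scale for each gene), with points for libraries and bars for group means. Angpt2 was high in lung KO alone, Kdr, Slc28a2, Afdn and Mfng were lower in heart KO than in heart control, and Edn1, Pak4, Alcam and Cdh23 moved in opposite directions in the 2 tissues.

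Of 28 genes that mark heart capillaries 12 fell in heart KO (against 9.09% of all genes tested) and none rose. In lung 1 of them fell (against 4.11%), and 4 had a lower difference (against 2.57%; median difference −1.21, median heart change −1.42). Slc28a2, a nucleoside transporter gene, had 36.6 and 43.3 CPM in heart KO, against 760 and 623 CPM in heart control. It was near the limit of detection in lung, at 0.825, 0.338 and 1.12 CPM in KO and 1.45, 0.471 and 0.976 CPM in control. Its heart change was log2 −4.11 and its difference −3.76 (SE 0.549, adjusted p = 0.0019). Tcf15, a transcription factor gene of fatty-acid-handling endothelium, fell to 16.7 and 27.0 CPM in heart KO, against 261 and 326 CPM in heart control, with a difference of −3.15 (SE 0.711, adjusted p = 0.0196). Aqp7, a glycerol channel gene, and Mgll, which encodes a monoglyceride lipase, also had lower differences (−4.64 and −1.54). All 4 genes of this list with a lower difference fell in heart, and for none did a lung rise pass. The lung change of Aqp7 was log2 1.32 (adjusted p = 0.368). The calls for Tcf15, Aqp7 and Mgll each ended without heart KO 1, heart control 1 or heart control 2 (adjusted p = 0.0623 to 0.142). Those for Aqp7 and Mgll also ended without lung control 1 or 3 (adjusted p = 0.0595 to 0.0777). Without lung KO 3 the Aqp7 difference was −2.76 (adjusted p = 0.0989), without lung control 2 its adjusted p was 0.0524, and without lung KO 2 that of Mgll was 0.0503. With heart and lung paired by number the adjusted p of Mgll was 0.0625, and that of Aqp7 was 0.054 in limma-voom and 0.0579 in the female libraries. The list count was 1 without heart KO 1, heart control 1 or heart control 2, 2 without lung control 1 or 3, and 7 without heart KO 2.

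Of 30 lung capillary genes 2 had a higher difference (Kit and Plvap) and 1 a lower one (Scn7a), against 3.83% and 2.57% of all genes tested. With heart and lung paired by number 3 were lower. Scn7a, a sodium channel gene of lung capillaries, rose in lung to 2724, 6208 and 3236 CPM in KO, against 1209, 1058 and 1244 CPM in control. Heart Scn7a stayed low, at 15.6 and 20.9 CPM in KO and 16.3 and 23 CPM in control. The difference of −1.9 (SE 0.437, adjusted p = 0.0214) ended without heart KO 1 or heart control 2 (adjusted p = 0.108 and 0.101). Kit, a receptor tyrosine kinase gene, had 296 and 179 CPM in heart KO, against 63.3 and 48.9 CPM in heart control. In lung Kit had 589, 376 and 419 CPM in KO, against 869, 818 and 870 CPM in control, where the fall did not pass (adjusted p = 0.129), and the difference was 2.96 (SE 0.539, adjusted p = 0.00668).

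Opposite changes that passed in both tissues were found for 101 genes, and the 8 named by rule include cytoskeletal, adhesion and chromatin genes. Pak4, a kinase gene that acts on actin and junctions, rose to 37.8 and 29.3 CPM in heart KO, against 8.21 and 8.42 CPM in heart control. Lung Pak4 fell to 90.2, 93.6 and 76.7 CPM in KO, against 136, 187 and 191 CPM in control, a difference of 2.99 (SE 0.283, adjusted p = 0.000137). Alcam, an adhesion molecule of the immunoglobulin family, rose to 8.10 and 7.45 CPM in heart KO, against 1.39 and 2.11 CPM in heart control. It fell in lung to 9.37, 12.2 and 8.53 CPM in KO, against 28.3, 36.1 and 38.4 CPM in control, a difference of 3.92 (SE 0.385, adjusted p = 0.000177). After these opposite changes the KO levels of Alcam in heart and lung lay close together, from 7.45 to 12.2 CPM, while its control levels in the 2 tissues lay far apart.

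The other 6 opposite genes fell in heart and rose in lung. Cdh23, which encodes an atypical cadherin known from hair cells of the inner ear, fell to 16.2 and 17.1 CPM in heart KO, against 217 and 252 CPM in heart control. In lung it rose to 5.44, 3.34 and 9.0 CPM in KO, against 2.2, 1.58 and 3.04 CPM in control, a difference of −5.20 (SE 0.566, adjusted p = 0.00032). Synm, an intermediate filament gene, had 12.1 and 14.5 CPM in heart KO, against 69.6 and 53.2 CPM in heart control. Lung Synm had 176, 116 and 180 CPM in KO and 62.4, 97.8 and 76.0 CPM in control, a difference of −3.21 (SE 0.402, adjusted p = 0.000753). Trim24, a chromatin reader and corepressor gene, changed least but with little spread, with 134 and 136 CPM in heart KO, against 211 and 221 CPM in heart control. In lung it had 88.1, 77.2 and 78.9 CPM in KO and 58.6, 60.4 and 59.3 CPM in control, a difference of −1.13 (SE 0.126, adjusted p = 0.000359). Fam102a (−2.75), Ints6l (−1.86) and Il16 (−2.40), the last encoding a cytokine precursor, completed the group, with adjusted p of 0.000421, 0.000481 and 0.000562. All 8 calls held without any 1 library.

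The hypoxia and glycolysis list had 13 higher and 1 lower difference among 34 genes tested (against 3.83% and 2.57% of all genes), a median difference of 0.756. In heart 18 of the 34 rose (against 10.2%) and 2 fell, whereas in lung 6 rose (against 4.35%) and 2 fell, and 12 of the 13 with a higher difference rose in heart. Pgk1, which encodes the glycolytic enzyme phosphoglycerate kinase, had 180 and 165 CPM in heart KO, against 28.6 and 28.4 CPM in heart control. Lung Pgk1 had 27.9, 36.6 and 33.5 CPM in KO and 25.3, 25.7 and 25.9 CPM in control. Only heart KO stood far from the rest, with a heart change of log2 2.60, a lung change of 0.35 that did not pass (adjusted p = 0.26) and a difference of 2.25 (SE 0.279, adjusted p = 0.000696). Eno1, the gene of the enolase step, had 455 and 388 CPM in heart KO, against 93.7 and 89.8 CPM in heart control. Its lung levels were 59.7, 87.5 and 83.1 CPM in KO and 67.6, 63.7 and 67.9 CPM in control, and the difference was 1.99 (SE 0.288, adjusted p = 0.00184). Hif1a, the oxygen-regulated transcription factor gene of this response, had 401 and 211 CPM in heart KO, against 77.4 and 78.2 CPM in heart control. Lung Hif1a had 76.5, 74.9 and 74.5 CPM in KO, just above 68.2, 61.5 and 59.8 CPM in control, and the difference was 1.72 (SE 0.263, adjusted p = 0.00246). The neighbouring glycolytic gene Pgam1 had a difference of 1.59 (adjusted p = 0.00347). These 4 calls held without any 1 library, and the list count of higher differences was 7 without heart KO 1 or heart control 1. Reads of processed pseudogenes, which are many for glycolytic genes, could not be separated from their parent genes here.

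Of 56 matrix and basement membrane genes 11 had a higher difference (against 3.83% of all genes tested) and none a lower one, with a median difference of 1.19. In heart 20 of the 56 rose (against 10.2%) and 2 fell, and in lung 8 rose (against 4.35%) and 4 fell. Of 34 genes of proteases and their inhibitors 5 had a higher and 1 a lower difference (against 3.83% and 2.57%). In heart 7 rose and 5 fell (against 10.2% and 9.09%), and in lung 6 rose and 4 fell (against 4.35% and 4.11%). Col5a2, a fibrillar collagen chain, had 334 and 340 CPM in heart KO, against 62.8 and 58.3 CPM in heart control. Lung Col5a2 overlapped, at 64.3, 69.9 and 41.8 CPM in KO and 66.3, 41.5 and 53.6 CPM in control, and the difference was 2.35 (SE 0.286, adjusted p = 0.000562). Mmp14, which encodes a membrane-bound collagenase, rose in both tissues but further in heart. It had 312 and 244 CPM in heart KO, against 31.2 and 29.2 CPM in heart control. Lung Mmp14 had 110, 149 and 122 CPM in KO, against 64.1, 47.4 and 58.1 CPM in control, and the difference was 2.03 (SE 0.231, adjusted p = 0.000387). Timp1, an inhibitor of such proteases, followed the same order, with 79.3 and 48.1 CPM in heart KO against 2.18 and 1.77 CPM in heart control, and 5.65, 6.93 and 11.3 CPM in lung KO against 2.93, 2.33 and 1.87 CPM in lung control. Its difference was 3.27 (SE 0.556, adjusted p = 0.00443). In the list of mesenchymal transition and contractile genes 2 of 30 had a higher difference (against 3.83%). In heart 14 rose (against 10.2%), and in lung 8 (against 4.35%). Vim, its intermediate filament gene vimentin, had 5108 and 5677 CPM in heart KO, against 1170 and 1100 CPM in heart control. Vim in lung had 1558, 1948 and 1034 CPM in KO and 1495, 1381 and 1553 CPM in control, and the difference was 2.21 (SE 0.343, adjusted p = 0.00256).

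The matrix count was 3 to 6 without any 1 of 8 libraries (heart KO 1 or 2, heart control 1 or 2, lung KO 1 or 3, lung control 1 or 3), and 17 with heart and lung paired by number. Of 25 fibroblast marker genes 4 rose and 1 fell in heart (against 10.2% and 9.09% of all genes tested). The fibroblast sum was 3644 and 4468 CPM in heart KO, against 2611 and 3005 CPM in heart control. The 16 mesothelial marker genes summed to 1980 and 1540 CPM in heart KO, against 501 and 779 CPM in heart control, and to 789, 567 and 804 CPM in lung KO, against 466, 311 and 488 CPM in lung control. Of 15 tested 1 rose in heart (against 10.2%), with a median heart change of log2 1.29. Igfbp5, an IGF-binding protein gene, made up most of the sum. It had 1353 and 1025 CPM in heart KO, against 239 and 376 CPM in heart control. For Msln, the mesothelin gene that defines mesothelium, the heart groups overlapped (17.3 and 0.691 CPM in KO, against 0.812 and 2.72 CPM in control). The part of fibroblast and mesothelial transcripts in the matrix result was not tested.

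**Figure D3:**
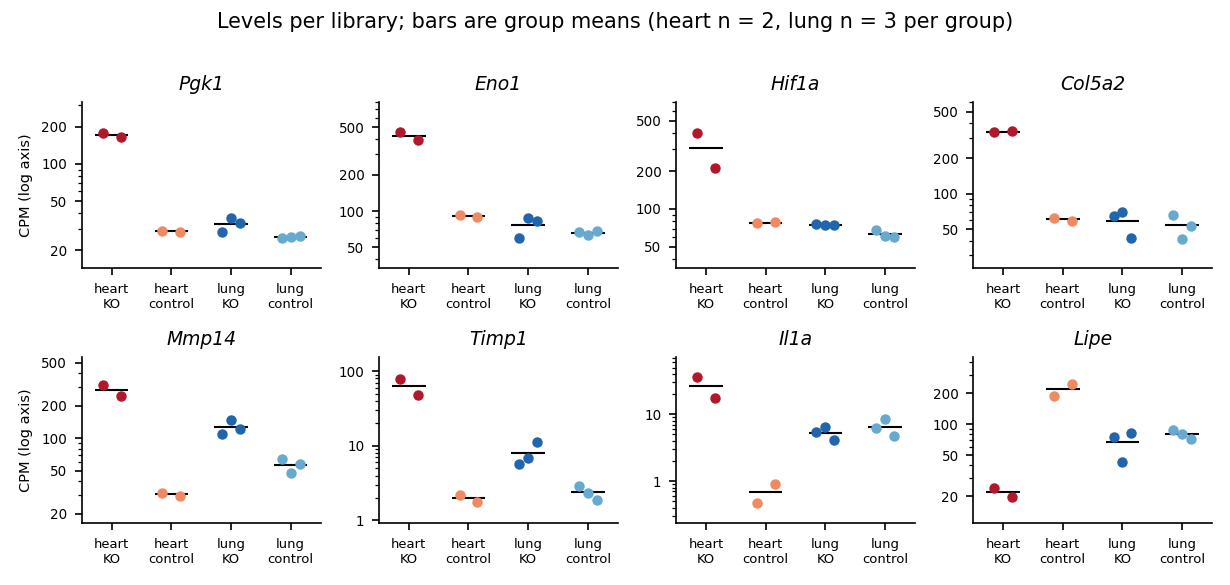
Levels of 8 genes of hypoxia and glycolysis, matrix, protease, inflammatory and lipid lists in every heart and lung library (CPM, log axis, with a separate scale for each gene), with points for libraries and bars for group means. Heart KO libraries stood above the 8 others for all but Lipe, for which they were the lowest.

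Inflammatory adhesion and chemokine genes had 10 higher and no lower difference among 47 tested (against 3.83% and 2.57% of all genes), with a median difference of 1.45. In heart 22 rose (against 10.2%) and 2 fell, and in lung 5 rose (against 4.35%) and 1 fell. Il1a, the gene of the alarm cytokine interleukin 1 alpha, had 35.9 and 17.8 CPM in heart KO, against 0.464 and 0.915 CPM in heart control. Lung Il1a had 5.51, 6.38 and 4.09 CPM in KO and 6.23, 8.64 and 4.80 CPM in control, and the difference was 5.57 (SE 0.646, adjusted p = 0.000428). Csf2, which encodes the growth factor GM-CSF, had 3.84 and 3.33 CPM in heart KO (287 counts) and no count in heart control. Against a floor of 3 counts over the control group, Csf2 was 84.4-fold higher in heart KO. In lung it had 0 to 0.176 CPM in KO and 0.266 to 0.332 CPM in control, and its difference passed (adjusted p = 0.00481). Traf1, an adaptor of TNF receptors, and Il33, a nuclear cytokine of barrier tissues, rose in heart and not in lung, with differences of 1.80 and 2.44. Both of these calls ended in the female libraries alone (adjusted p = 0.0749 and 0.0942). The list count was 5, 4, 6 and 6 without heart KO 1, heart control 1, heart control 2 and lung control 1, and 18 with heart and lung paired by number.

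Of 27 coagulation and fibrinolysis genes 4 had a higher difference (against 3.83% of all genes tested) and none a lower one. In heart 16 of them rose (against 10.2%) and 3 fell, and in lung 6 rose (against 4.35%) and 1 fell. F2rl1, which encodes a protease-activated receptor, had 69.7 and 55.5 CPM in heart KO, against 7.08 and 4.88 CPM in heart control. Lung levels of F2rl1 were low, at 0.146, 1.38 and 0.588 CPM in KO and 1.99, 1.55 and 2.43 CPM in control, and the difference was 4.91 (SE 0.897, adjusted p = 0.0069). Anxa2, a cell-surface cofactor of plasmin formation, had 1321 and 1267 CPM in heart KO, against 338 and 354 CPM in heart control. Lung Anxa2 overlapped, at 337, 484 and 406 CPM in KO and 390, 271 and 307 CPM in control, and the difference was 1.56 (SE 0.293, adjusted p = 0.00768). The list count was 2 without heart KO 1 or heart control 1. Platelet and megakaryocyte genes moved with the label in heart, where the 18 genes summed to 1172 and 725 CPM in KO, against 207 and 168 CPM in control. In lung they summed to 402, 321 and 771 CPM in KO, against 375, 312 and 286 CPM in control. Of the 18, 6 rose and 1 fell in heart (against 10.2% and 9.09% of all genes), and 5 rose in lung (against 4.35%). The difference was higher for 1 and lower for 1 (against 3.83% and 2.57%). Thbs1 and Itgb3, which other cells also express, made up most of the heart sum, and Pf4, the platelet factor 4 gene, had 20.7 and 33.3 CPM in heart KO, against 2.03 and 3.77 CPM in heart control. Leukocyte transcripts, which moved with the label in heart as well, are given with the epithelial transcripts, and the part of platelet and leukocyte transcripts in these lists was not tested.

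Antigen presentation split by class. For MHC class II, 7 of 16 genes had a higher difference (against 3.83% of all genes tested) and none a lower one. In lung 7 of the 16 fell (against 4.11%), among them 6 of the 7 with a higher difference. H2-Eb1, a class II beta chain, had 13.2, 13.1 and 8.41 CPM in lung KO, against 344, 136 and 161 CPM in lung control. Heart libraries held little of it, at 5.31 and 6.91 CPM in KO and 5.05 and 4.38 CPM in control, and the difference was 4.58 (SE 0.846, adjusted p = 0.00723). Cd74, the invariant chain that escorts class II molecules, had 24.3, 33.5 and 18.0 CPM in lung KO, against 1156, 308 and 443 CPM in lung control. Heart Cd74 had 21.0 and 23.1 CPM in KO and 17.8 and 15.2 CPM in control. Its difference of 5.08 (SE 0.942, adjusted p = 0.0074) narrowly ended without heart control 2 (adjusted p = 0.0504). Lung KO levels of both genes came close to those of heart libraries. The median difference of the list was 2.36, or 2.29 when the 1 gene without any count in 1 of the groups is set to 3 counts, and the count was 4, 3, 2 and 4 without heart KO 1, heart control 1, heart control 2 and lung control 1. Class II genes are also expressed by alveolar epithelium and by leukocytes, whose sums were lower in lung KO, and their part in this fall was not tested.

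For MHC class I presentation no difference passed in edgeR among 23 genes (4 at an unadjusted p under 0.05, 2 called by DESeq2). In heart 15 of the 23 fell (against 9.09% of all genes tested), and in lung 12 (against 4.11%). H2-Q6, a class I gene, had the smallest p of the list, with a difference of −0.97 (adjusted p = 0.0813, and 0.0304 without lung control 1). The interferon response list likewise had no difference called by edgeR among 44 genes (6 at an unadjusted p under 0.05, 1 called by DESeq2). Of the 44, 19 fell in heart (against 9.09%), 15 fell in lung (against 4.11%) and none rose. Gbp4, an interferon-induced GTPase gene, fell to 94.0 and 104 CPM in heart KO, against 436 and 374 CPM in heart control, and to 115, 74.5 and 91.5 CPM in lung KO, against 278, 202 and 218 CPM in lung control. Its difference was −0.72 (SE 0.255, adjusted p = 0.114, and 0.0453 without lung KO 2). H2 and Gbp genes have close paralogs, between which reads may have been split.

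**Figure D4:**
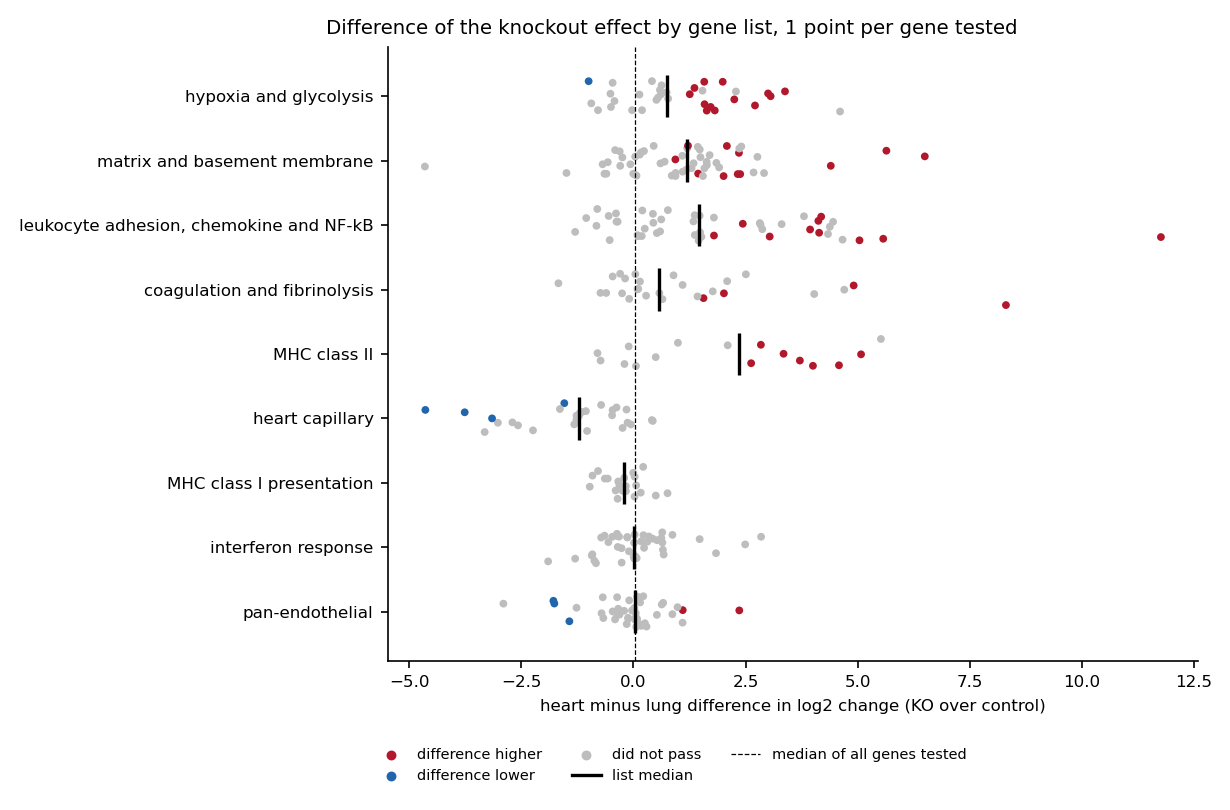
Difference of the knockout effect (heart minus lung, log2) for every gene tested in 9 lists, with list medians as black bars and the median of all genes tested as a dashed line. Points of the hypoxia, matrix, adhesion and MHC class II lists reach far to the right, those of the heart capillary list to the left, and those of the class I and interferon lists centre near 0 with none called; the points farthest right are Csf2 and Serpinb2, which had no count in heart control, so that their fitted values are no measure of size.

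Lipid genes moved both ways. Of 48 fatty acid handling genes 4 had a higher and 5 a lower difference (against 3.83% and 2.57% of all genes tested), and all 9 had changed in heart. In heart 8 of the 48 rose and 9 fell (against 10.2% and 9.09%), and in lung 2 rose and 2 fell (against 4.35% and 4.11%). Lipe, the hormone-sensitive lipase gene, fell to 23.9 and 19.8 CPM in heart KO, against 188 and 245 CPM in heart control. Lung Lipe overlapped, at 74.2, 42.8 and 82.5 CPM in KO and 87.5, 79.8 and 71.2 CPM in control, and the difference was −3.05 (SE 0.336, adjusted p = 0.000348). Scd1, a desaturase gene of fatty acid synthesis, rose to 92.9 and 114 CPM in heart KO, against 25.3 and 23 CPM in heart control. It fell in lung to 81.2, 57.1 and 83.4 CPM in KO, against 265, 188 and 187 CPM in control, a difference of 3.63 (SE 0.676, adjusted p = 0.00754). Fasn, the fatty acid synthase gene, did likewise, with a difference of 2.61 (SE 0.562, adjusted p = 0.0155). Its call ended without heart KO 1, heart control 1 or heart control 2 (adjusted p = 0.0602, 0.0623 and 0.0744). Acsl4, which activates long-chain fatty acids, rose in heart alone (difference 1.0, adjusted p = 0.00256). The 14 adipocyte marker genes summed to 1854 and 2636 CPM in heart KO, against 4261 and 6035 CPM in heart control. Nearly all of that was Fabp4, a fatty acid carrier gene that heart capillaries also express, with 1847 and 2623 CPM in KO and 4258 and 6031 CPM in control. Plin1, the perilipin gene that defines adipocytes, had at most 0.589 CPM in a heart library. In lung the sum was 18.6, 44.6 and 319 CPM in KO, against 25.3, 20.3 and 28.7 CPM in control, with lung KO 3 far above the rest. The part of adipocyte transcripts in these values was not tested. Alveolar epithelium also makes fatty acids for surfactant, and its part in the lung fall of Scd1 and Fasn was not tested. The count of lower differences in this list was 1 without heart KO 1, heart control 1 or heart control 2, 2 without lung control 1 or 3 and 3 without lung KO 3, and the higher count was 2 without heart control 1.

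Signalling and transcription factor genes were called singly. In the TGF-beta and BMP list 3 of 42 genes had a higher and 2 a lower difference (against 3.83% and 2.57% of all genes tested). Bmp2, a BMP ligand, had 32.6 and 22.6 CPM in heart KO, against 7.05 and 9.75 CPM in heart control, and in lung 6.67, 4.05 and 5.76 CPM in KO and 5.47, 5.85 and 6.53 CPM in control. Its difference was 1.82 (SE 0.303, adjusted p = 0.00379). Acvr2a, an activin and BMP receptor gene, had a lower difference (−1.24, SE 0.21, adjusted p = 0.00437), with 45.3 and 45.4 CPM in heart KO against 85.8 and 85.4 CPM in heart control. Of 59 endothelial and organ transcription factors 3 had a higher and 4 a lower difference (against 3.83% and 2.57%). All 4 with a lower difference fell in heart, and 1 of them rose in lung. Runx1, a factor of blood-forming endothelium, rose to 7.34 and 4.89 CPM in heart KO, against 0.638 and 0.527 CPM in heart control. Its lung levels were 1.99, 5.71 and 4.53 CPM in KO and 8.67, 6.73 and 9.95 CPM in control, and the difference was 4.44 (SE 0.65, adjusted p = 0.0019). Runx1 is also a leukocyte gene. Mef2d and Mef2c, which encode MADS-box factors that act under shear, had differences of −1.28 and −1.26 (adjusted p = 0.00299 and 0.00818), and both calls ended in the female libraries alone (adjusted p = 0.0577 and 0.0636), that of Mef2c also without heart KO 1 (adjusted p = 0.0519). The count of lower differences among these factors was 2 without heart KO 1 or heart control 1. In the cell cycle list 4 of 44 genes had a higher difference (against 3.83%). They were led by the G1 kinase gene Cdk6 (1.66, SE 0.309, adjusted p = 0.0074), which rose in heart and fell in lung. That count was 1, 1 and 2 without heart KO 1, heart control 1 and heart control 2, and the higher count of the TGF-beta and BMP list was 1 without heart control 2 and 5 without lung KO 2. No immediate early gene of 36 and no nuclear gene of the respiratory chain of 73 had a difference called by edgeR, with 1 and 2 of them at an unadjusted p under 0.05 and 1 and 0 called by DESeq2.

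Axon guidance genes were called in both directions. Sema4b (chromosome 7, 80186841 to 80226527, plus strand), a membrane semaphorin gene, had 58.4 and 38.6 CPM in heart KO, against 3.98 and 3.85 CPM in heart control. Lung Sema4b had 10.3, 12.6 and 9.5 CPM in KO and 7.87, 8.98 and 10.1 CPM in control, and the difference was 3.37 (SE 0.294, adjusted p = 8.28e-05). Unc5b, a netrin receptor gene of arteries and tip cells, moved the other way. It had 205 and 202 CPM in heart KO, against 441 and 409 CPM in heart control, while lung KO had 78.4, 160 and 90.8 CPM, against 65.2, 64.9 and 61.2 CPM in lung control. Its difference was −1.85 (SE 0.344, adjusted p = 0.0075). Over 55 genes tested in this list 4 differences were higher and 6 lower (against 3.83% and 2.57% of all genes). The lower count was 1 or 2 without any 1 library other than heart KO 2, lung KO 2 and lung KO 3, and the higher count was 1 or 2 without heart KO 1, heart control 2 or lung control 3.

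Over all 33 lists of endothelial and pathway genes, 120 of 976 genes tested had a called difference (12.3%, against 6.4% of all genes), 89 higher and 31 lower. Since members and lists were chosen with earlier results of these data known, this share is a description.

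The 10 largest lower differences named by rule came with a lung rise, a heart fall or both, with Cyp1a1 at −9.09 and Vwa1 at −4.00 as their limits. Adam23, an integrin-binding surface protein gene, had 295, 258 and 48.1 CPM in lung KO, against 8.72, 5.49 and 11.1 CPM in lung control. In heart it had 6.70 and 11.9 CPM in KO, against 17.9 and 23.4 CPM in control, a fall that did not pass (adjusted p = 0.201), and the difference was −5.72 (SE 0.819, adjusted p = 0.00182). Lancl3, a gene of the lanthionine synthetase C-like family, had 77.9, 37.5 and 16.5 CPM in lung KO, against 0.339, 1.08 and 0.474 CPM in lung control, and 22.4 and 21.2 CPM in heart KO against 7.28 and 13.7 CPM in heart control. KO libraries thus lay above controls in both tissues, further in lung, and the Lancl3 difference was −5.07 (SE 0.783, adjusted p = 0.00253). The matrix glycoprotein gene Papln fell in heart, to 31.1 and 56.9 CPM in KO against 298 and 242 CPM in control, and rose in lung (log2 2.14), a difference of −4.75 (SE 0.819, adjusted p = 0.00481). Among the others named, Cyp1a1, a target of the aryl hydrocarbon receptor, had 0.171 and 0.154 CPM in heart KO against 10.1 and 22.7 CPM in heart control, and 32.0, 88.4 and 493 CPM in lung KO against 35.6, 41.1 and 34.7 CPM in lung control. Lung KO library 3 alone was far above the lung controls for Cyp1a1, and its lung change did not pass (adjusted p = 0.0579). The synaptic esterase gene Ache and the netrin receptor gene Unc5c rose in lung alone, whereas Abcb4, a phospholipid transporter gene, and Vwa1, a matrix protein gene, fell in heart alone. The call for Unc5c ended without any 1 library other than heart control 1 and lung KO 3, that for Vwa1 without heart KO 1, heart KO 2 or heart control 1, and that for Abcb4 without heart KO 1. In the female libraries alone the calls for Cyp1a1, Ache, Unc5c, Abcb4 and Vwa1 ended (adjusted p = 0.0543, 0.0855, 0.143, 0.0878 and 0.13), and in limma-voom those for Cyp1a1, Ache and Unc5c (adjusted p = 0.164, 0.0656 and 0.223).

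The genes with the largest higher differences lay at unlike levels in heart KO and in lung. Gap43, a growth cone gene, had 47.9 and 35.8 CPM in heart KO, against 0.609 and 0.637 CPM in heart control. Its lung levels stayed low, at 0.728, 1.56 and 0.470 CPM in KO and 1.84, 1.41 and 1.0 CPM in control, and the difference was 6.69 (SE 0.869, adjusted p = 0.000937). Spp1, the osteopontin gene, rose in heart as well, to 31.7 and 10.4 CPM in KO against 0.406 and 0.0831 CPM in control, a difference of 6.5 (SE 0.992, adjusted p = 0.00246). The lung change of Spp1 was log2 −0.076 and did not pass (adjusted p = 0.959). Disp2, a gene of the dispatched family, rose to 29.5 and 16.2 CPM in heart KO, against 0.174 and 0.277 CPM in heart control, and was higher still in lung. Igfbp2, Lyz1, Mal2, Dnah5 and Cfap65 were low in heart KO and higher in lung control. They had at most 3.33 CPM in a heart KO library and at least 6.59 CPM in each lung control library, and Mal2, Dnah5, Cfap65 and Igfbp2 had no count in heart control. Against a floor of 3 counts over that group they were 4.41-fold, 5.59-fold, 5.88-fold and 34.1-fold higher in heart KO. Dnah5 and Cfap65 belong to motile cilia, and Lyz1 encodes a lysozyme whose reads may be shared with its paralog Lyz2. The call for Igfbp2 ended without any 1 library other than lung KO 3 and lung control 1, that for Cfap65 without any 1 other than heart KO 2, lung KO 3 and lung control 2, and that for Dnah5 without heart KO 1, heart control 1 or heart control 2. Hmga2 and Il18r1 completed the 10. Hmga2 had 1055 counts over the heart KO libraries and 2 over the heart controls. That is a ratio of 465, with a 95% interval of 128 to 3847 for counting error only. The call for Hmga2 ended without heart KO 1, heart control 2, lung control 1 or lung control 3 (adjusted p = 0.0663, 0.0787, 0.171 and 0.0946). That for Il18r1 ended without heart KO 1, heart control 1 or heart control 2 (adjusted p = 0.0906, 0.081 and 0.0694), and with heart and lung paired by number (adjusted p = 0.0569). In limma-voom the calls for Igfbp2, Cfap65, Dnah5 and Hmga2 ended (adjusted p = 0.0785, 0.168, 0.061 and 0.0661), that for Igfbp2 also in the female libraries alone (adjusted p = 0.131) and that for Cfap65 with the 10 libraries fitted alone (adjusted p = 0.0544).

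Lung epithelial transcripts were more abundant in heart KO than in heart control. Of the 20 defining genes 17 rose in heart (85%, against 10.2% of all genes tested), and 17 had a higher difference (against 3.83%). In lung 13 fell (against 4.11%) and none rose. Sftpc, the surfactant protein C gene of alveolar type 2 cells, had 46.0 and 81.8 CPM in heart KO, against 0.929 and 1.30 CPM in heart control. It had 175, 116 and 62.6 CPM in lung KO, against 993, 1183 and 1050 CPM in lung control. Heart KO library 2 thus held more Sftpc than lung KO library 3. Scgb1a1, the secretoglobin gene of club cells, had 16.6 and 26.2 CPM in heart KO, against 0.493 and 0.637 CPM in heart control, and 84.0, 283 and 141 CPM in lung KO against 265, 182 and 1289 CPM in lung control. Sftpa1, another surfactant protein gene, had 14.2 and 19.4 CPM in heart KO against 0.174 and 0.416 CPM in heart control, and 50.5, 34.5 and 22.3 CPM in lung KO against 272, 359 and 303 CPM in lung control. Its difference of 8.93 (SE 0.571) had the smallest adjusted p of the comparison, 7.54e-06. Nkx2-1, Bpifa1 and Scgb3a2 had no count in either heart control library. Against a floor of 3 counts they were 5.29-fold, 33.5-fold and 35.3-fold higher in heart KO. Ager, Foxj1 and Scgb3a1 did not pass in heart, and for Foxj1, the factor of ciliated cells, the groups overlapped (0.709 and 0.512 CPM of Foxj1 in KO, against 0.232 and 1.30 CPM in control). The median difference of the list was 7.93, or 7.39 when the 3 genes without any count in 1 of the groups are set to 3 counts.

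Summed over the 20 genes, lung KO libraries held 623, 871 and 595 CPM, against 2695, 3087 and 4108 CPM in lung control. The same transcripts thus moved up in heart and down in lung, and each such gene gives a higher difference. Of 79 genes that reached 20 CPM in lung control at over 50 times their heart control level, 24 were on the epithelial lists, and the heart gain in KO came to a median of 5.6% of their lung control level (range −0.272% to 17.8%). For the 8 genes of the lung capillary list among the 79 the median was 0.413% (−0.152% to 4.85%). For the 47 genes on neither list it was 0.268% (−1.08% to 140%), and 10 of them passed as higher in heart KO. The 140% was that of the Y-linked gene Ddx3y, where heart KO library 2 was male and both heart controls were female. The next highest of these genes was Disp2 at 16.6%. Set against the lung KO level the medians were 22.5% for the epithelial, 0.463% for the lung capillary and 0.495% for the remaining genes. Foxf1, a transcription factor gene of lung endothelium, had 3.52 and 5.32 CPM in heart KO and 3.28 and 5.02 CPM in heart control, against 1362 to 1921 CPM in lung libraries. Hpgd, a prostaglandin-degrading enzyme gene high in lung, had 3.67 and 5.4 CPM in heart KO and 2.03 and 5.93 CPM in heart control. Foxf1, Hpgd and this set of 79 genes were chosen after the values were seen. Of the lung capillary genes 2 of 8 passed as higher in heart KO, and of the epithelial genes 22 of 24 (against 10.2% of all genes tested). The 79 genes were picked partly by a low heart control level, which also enters the heart change. These counts therefore only describe the set, and no source can be read from them.

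Leukocyte genes rose in heart as well, 13 of 30 tested (against 10.2% of all genes) with none lower. Of the 30, 9 had a higher difference (against 3.83%). Their sum was 366 and 604 CPM in heart KO, against 43.2 and 100 CPM in heart control, and 221, 485 and 199 CPM in lung KO, against 682, 651 and 626 CPM in lung control. Lyz2, the lysozyme gene of macrophages that alveolar type 2 cells also express, made up a large part, with 78.0 and 168 CPM in heart KO, against 6.38 and 22.9 CPM in heart control. Marco, a scavenger receptor gene of alveolar macrophages, had 2.94 and 3.38 CPM in heart KO and no count in heart control. Against a floor of 3 counts Marco was 74.1-fold higher in heart KO. Itgam, Itgax, Coro1a, Tyrobp, Fcer1g and Cd14 also rose in heart. The called differences of Marco and Itgam ended in limma-voom (adjusted p = 0.151 and 0.0558). The count of higher differences in this list was 1 to 5 without any 1 library other than lung KO 2 and lung control 2. Of 22 general epithelial genes 7 had a higher difference (against 3.83%), and fewer did without heart control 1. In heart 6 of the 22 rose (against 10.2%), and in lung 3 fell (against 4.11%). Their sum was 55.7 and 45.2 CPM in heart KO, against 16.2 and 21.3 CPM in heart control. In lung it was 106.5, 219.3 and 196.1 CPM in KO, against 331, 279.8 and 387 CPM in control. Cardiomyocyte genes summed to 654 and 582 CPM in heart KO, against 529 and 700 CPM in heart control. Of 30 tested 7 fell and 1 rose in heart (against 9.09% and 10.2%), with a median heart change of log2 −1.11. The difference was higher for 2 of them and lower for 1 (against 3.83% and 2.57%). The source of the epithelial and leukocyte transcripts in the heart KO libraries was not tested. Leaving out genes over 10 times higher in lung than in heart controls, 553 higher and 499 lower differences remained.

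**Figure D5:**
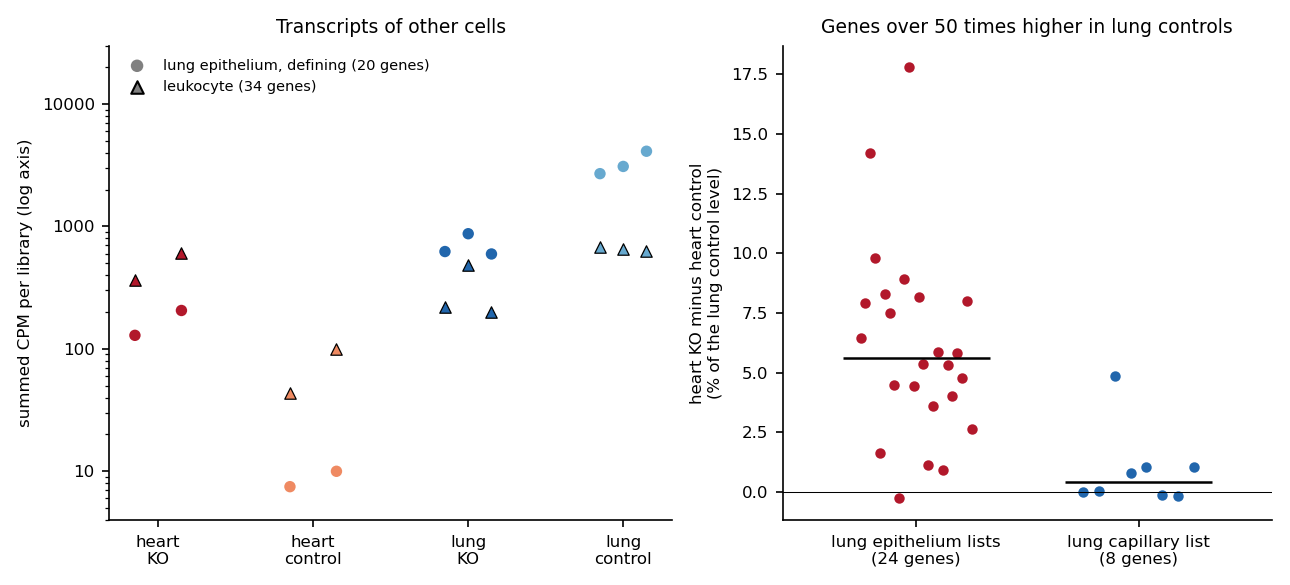
Left, summed level per library (CPM, log axis) of the 20 defining lung epithelial genes (circles) and of 34 leukocyte genes (outlined triangles); heart KO libraries lie above heart controls for both. Right, heart KO minus heart control as a percent of the lung control level for genes over 50 times higher in lung controls, with bars for medians of 5.6% (24 epithelial genes) and 0.413% (8 lung capillary genes).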

How the data were processed

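The authors deposited read counts per gene for 16 libraries, of which the heart and lung libraries are described here. Per the submitters' processing notes FastQC 0.11.5, STAR 2.7.6a and GRCm38 were used. How the reads were assigned to genes, with which annotation and strand setting, the sources used here do not state. Per the labels' protocols either an unstranded or a stranded TruSeq kit was used, without saying which for each library, so reads of overlapping antisense genes cannot be told apart.

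From the counts, genes were filtered with filterByExpr (count minimum 10) and scaled by TMM (factors 0.916 to 1.07). All 16 libraries in 6 groups were fitted together, so that they share 1 estimate of spread, with edgeR 4.0.16 (quasi-likelihood test, R 4.3.3) and Benjamini-Hochberg adjustment over all genes. The contrast was heart KO minus heart control, less lung KO minus lung control. Intervals cover counting error only. Where a group had no count, the KO count was set against a floor of 3 counts. That fold leaves out the counting error of the KO count and is no lower bound. On simulated counts, with 200 genes changed in heart KO alone, 5.71% of calls were false. DESeq2 1.42.0, limma 3.58.1 (voom), other scalings and filters, replicate blocks, and leaving out each library were alternatives.

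Named genes were Erg, Fli1 and a panel of 14, the 10 largest differences each way, up to 8 opposite changes and up to 4 genes per list by smallest p. Predicted, sex-linked and other-cell genes were left out of the middle groups. Members and lists were chosen with earlier results of these data known.

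Whether library numbers pair heart with lung was checked on deviations from group means over 9953 genes. Same-numbered libraries by the description field correlated at 0.17 and 0.325 in KO and 0.298 and 0.277 in control. With 2 heart libraries per group these values are not independent. Heart KO 1 correlated at 0.171 with lung KO 3, which has another number, beside 0.17 with its own. Same-numbered KO and control libraries correlated at 0.237 in heart and −0.178, −0.214 and 0.0014 in lung. Heart and lung were therefore paired within genotype as an alternative, and the labels do not say what the numbers mark.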

Additional observations from a re-analysis of the deposited data

Results flagged for a closer look

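In all, 1257 genes had a knockout effect that differed between heart and lung by the test of the difference itself, and 101 of them passed in both tissues with opposite signs. In the endothelial panel the differences were −1.76 for Emcn, −1.43 for Kdr and 2.36 for Plvap (log2, heart minus lung).

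Among genes with opposite changes, the differences were 2.99 for Pak4 and 3.92 for Alcam, which rose in heart and fell in lung. They were −5.20 for Cdh23, −3.21 for Synm, −2.75 for Fam102a, −2.40 for Il16, −1.86 for Ints6l and −1.13 for Trim24, which fell in heart and rose in lung.

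Transcripts that mark lung epithelium and leukocytes were above their control level in heart KO libraries. The 20 defining lung epithelial genes had a mean sum of 167 CPM there, and the leukocyte genes a mean sum of 485 CPM. The source of these transcripts was not tested.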

How the results depend on the processing

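Counts of higher and lower differences were 1221 and 933 by DESeq2, with 2514 genes in lung and 185 list genes, and 98.4% of the edgeR calls were among them. Fitting the 10 libraries alone called 188 list genes. The 7 female libraries of heart and lung, a choice made after the data were seen, gave 388 higher and 216 lower differences, 2522 genes in heart, 518 in lung and 74 list genes. Leaving out 1 library gave 287 to 818 higher and 169 to 583 lower differences, 1847 to 3962 genes in heart, 910 to 1681 in lung and 53 to 128 list genes. The lowest heart counts came without heart KO 1 (1847), heart control 1 (1992) or heart control 2 (1948), and the lowest lung counts without lung control 1 (1072), 2 (988) or 3 (910). Summed lung epithelial CPM in heart KO was 167 for the defining list, 687 for the wider list, 103 without Sftpc, and 129 to 206 when a heart library was left out. The wider list also takes in genes present in heart controls. It summed to 623 and 752 CPM in heart KO, against 477 and 475 CPM in heart control. With heart and lung paired by number within genotype (replicate block), 902 higher and 561 lower differences and 162 list genes were called, sharing 1029 genes with the unpaired fit. Of 129 called differences of named genes that block lost 11, DESeq2 0, limma-voom 17 and the female libraries 46. Leaving out heart KO 1, heart control 1 or heart control 2 lost 54, 51 and 51 of them and kept 35.8%, 37% and 39.8% of all calls, against 40.2% in females. Leaving out any 1 of the other libraries lost 6 to 25, and without lung control 3 the differences called fell to 764, against 1257. A block by title number gave 840 and 562, and by description number 855 and 536.

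Signs turned for the values given here, and the cause was not tested. In heart Fli1 was −0.021 with upper-quartile scaling and −0.066 in females, Pecam1 was −0.093 and Unc5c −0.42 in females, and Unc5c was −0.16 under the block by description number. The female fit and the fit without heart KO 2 hold the same heart libraries. In the latter these heart changes were −0.068 for Fli1, −0.095 for Pecam1 and −0.43 for Unc5c. In lung Spp1 was 0.085 and Kdr 0.092 in females. In females the Erg difference was −0.041 and that of Adrb3 −0.67. Under the blocks by description number and by genotype and number, the Vwf difference was 0.039 and 0.067 and that of Thbd 0.052 and 0.028. Leaving out 1 library at a time, the difference ran from −0.023 (without lung KO 3) to 0.23 for Erg, from −0.88 to 0.17 for Vwf, from −0.30 to 0.17 for Thbd and from −12.35 to 3.02 (without lung KO 3) for Car3. The heart change ran from −0.087 to 0.16 for Fli1, from −0.095 to 0.16 for Pecam1 and from −0.54 to 2.16 for Unc5c. The lung change ran from −0.17 to 0.11 for Kdr, from −0.24 to 0.57 for Vcam1, from −0.41 to 0.35 for Spp1 and from −0.56 to 1.80 for Aqp7. No called difference of a named gene turned.

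Depth was at least 31837780 counts per library. Which group's size limits the calls was not tested, and a difference that did not pass is not shown to be absent.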
